A study of Xenopus laevis with 12 samples.

Results

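The genes described here belong to families that help run the cell division cycle of the early frog embryo. The families are cyclins, cyclin-dependent kinases (Cdks), aurora and polo-like kinases, the Cdc25 phosphatases and Wee1 family kinases, checkpoint genes, and the subunits and activators of the anaphase-promoting complex (APC/C). They were taken by symbol, as every probe set whose single annotated gene is a numbered ccna, ccnb, ccnd or ccne, a numbered cdk or plk, an aurk, an anapc, or fzr1, cdc20, cdc25a, cdc25b, cdc25c, wee1, wee2, pkmyt1, chek1, chek2, bub1, bub1b or mad2l1. This gave 112 probe sets of 85 genes among the 32539 probe sets tested. The symbol rule also takes in 7 probe sets of Cdk-binding and Cdk5-associated proteins (the gene cdk2ap1.S and the cdk5r and cdk5rap genes), which are no kinases and are kept as a group of their own. Every numbered Cdk gene is kept, so kinases with roles outside the division cycle, such as cdk9 and cdk11b in transcription, count as cell cycle members below. Another 4 probe sets whose annotation names several genes were left out. Xenopus laevis is an allotetraploid, and many genes have a copy on its long subgenome (.L) and another on its short one (.S); 23 of the genes have more than 1 probe set, numbered here in the order of the deposited table.

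Whole embryos from in vitro fertilization were measured on 12 Affymetrix arrays. Morpholino oligonucleotides, antisense molecules that block translation or splicing of a chosen RNA, went into the animal pole of each blastomere at the 4-cell stage. The groups were Fam46a-MO1 at 10 ng per cell (MO1), Fam46a-MO2 with Fam46a-MO3 at 7 ng each per cell (MO2+MO3), and the control oligonucleotide CoMO at 10 ng per cell, each collected at stage 8 and at stage 10.5 with 2 biological replicates. No strain, genotype or clutch is named, and all groups were injected, so no uninjected embryo enters a comparison. How far the oligonucleotides spread through the embryo from the injected cells is not given. Which of them blocks translation and which blocks splicing is not stated. In whole embryos, fewer cells of a type and less RNA per cell cannot be told apart.

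In every dividing cell, cyclins accumulate and switch on Cdks, Wee1 family kinases hold Cdk1 back by phosphorylating it, and Cdc25 phosphatases release it. At anaphase the APC/C, a ubiquitin ligase, marks cyclin B and securin for destruction, with Cdc20 as its activator in mitosis and Fzr1 (Cdh1) as its activator at mitotic exit and in G1. The first cleavages of the frog embryo run fast and without gap phases on maternal RNA and protein. Around the mid-blastula transition the cycles lengthen, zygotic transcription begins and checkpoints become active; stage 8 is a blastula and stage 10.5 an early gastrula. FAM46A (TENT5A), the target of the oligonucleotides, belongs to a family of poly(A) polymerases.

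The deposited values are on a log scale, taken here as log2, the scale that RMA normally gives, since the base is not given in the sources used here. They are centred per probe set at each stage on the median of its 6 arrays, so they give the order of the arrays at a stage and no level of a gene. On that reading a value of 1 means 2-fold above that median, and every change below is a log2 difference between groups of the same stage with its standard error (SE). Called means an adjusted p under 0.05 in limma, with the adjustment over all probe sets. The array medians lay between -0.0106 and 0.012. Arrays of the same replicate number deviated together within a stage, so each test was also fitted with the replicate number as a block; calls are given without and with this replicate block. The targeted gene, tent5a.L, has 2 probe sets, which at stage 10.5 differed from CoMO by 0.02 ± 0.35 and -0.10 ± 0.29 in MO1 and by 0.39 ± 0.35 and 0.05 ± 0.29 in MO2+MO3, with adjusted p of 0.17 or more with the block. At stage 8 the changes were -0.16 and -0.02 in MO1 and 0.10 and -0.13 in MO2+MO3, uncalled. An oligonucleotide that blocks translation need not change the RNA, so these values neither check the labels nor show whether the target was blocked.

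At stage 8 no cell cycle probe set was called. The fit without the block called 0 of 112 in MO1 and 0 in MO2+MO3, beside 0.00615% and 0% of all probe sets, and with the block again 0 and 0, beside 0.123% and 0.141%. MO1 against MO2+MO3 also gave 0 calls at this stage, beside 0.00615% of all probe sets without the block and 0.381% with it. At an unadjusted p under 0.05, 3 and 6 of the 112 passed without the block in MO1 and MO2+MO3, beside 628 and 763 of the 32539 probe sets. With the block 10 and 16 passed, beside 2666 and 3544 of the 32539. In 108 of the 112 probe sets the change was under 0.5 in both MO1 and MO2+MO3, a count that is not given over all probe sets.

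At stage 10.5 some cell cycle probe sets were called, and in 94 of the 112 the change was under 0.5 in both reagents. The latter count is not given over all probe sets, so it cannot be read as a trait of the cell cycle genes in particular. With the block alone, the APC/C activator fzr1.L was called higher with both reagents, and both copies of wee2 were called lower with MO1 alone. The polo-like kinase plk2.L was called lower with MO2+MO3 alone, both without and with the block. Without the block, 1 probe set was called in MO1 (lower) and 2 in MO2+MO3 (both lower), beside 0.916% and 0.907% of all probe sets (0.473% and 0.344% lower). The block raised this to 30 in MO1, 26.8% of the members beside 16.2% of all probe sets. Of these 18 were higher and 12 lower, beside 8.48% higher and 7.75% lower over all probe sets. In MO2+MO3 the block gave 20 calls, 17.9% of the members and near the 16.8% of all probe sets, with 11 higher and 9 lower beside 9.02% and 7.77%. These counts rest on all arrays: with 1 array left out they were 10 to 15 in MO1 (8.93% to 13.4%, beside 6.26% to 8.22% of all probe sets) and 6 to 13 in MO2+MO3 (5.36% to 11.6%, beside 6.71% to 8.76%). Only 8 of the 30 MO1 calls were kept whichever array was left out: fzr1.L, wee2.L, wee2.S, cdk9.L probe set 1, cdk11b.S, ccnb2.S, ccnb3.S probe set 1 and chek1.S probe set 2. Of the 20 MO2+MO3 calls 5 were, those of plk2.L, fzr1.L, cdk5r2.S, ccnb3.L and cdk10.L probe set 2. In these fits, here and below, only arrays of the groups compared were left out, and not the other arrays of the model. The median change of the members was 0.04 in MO1 and 0.00 in MO2+MO3, against 0.02 and 0.00 over all probe sets.

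**Figure D1:**
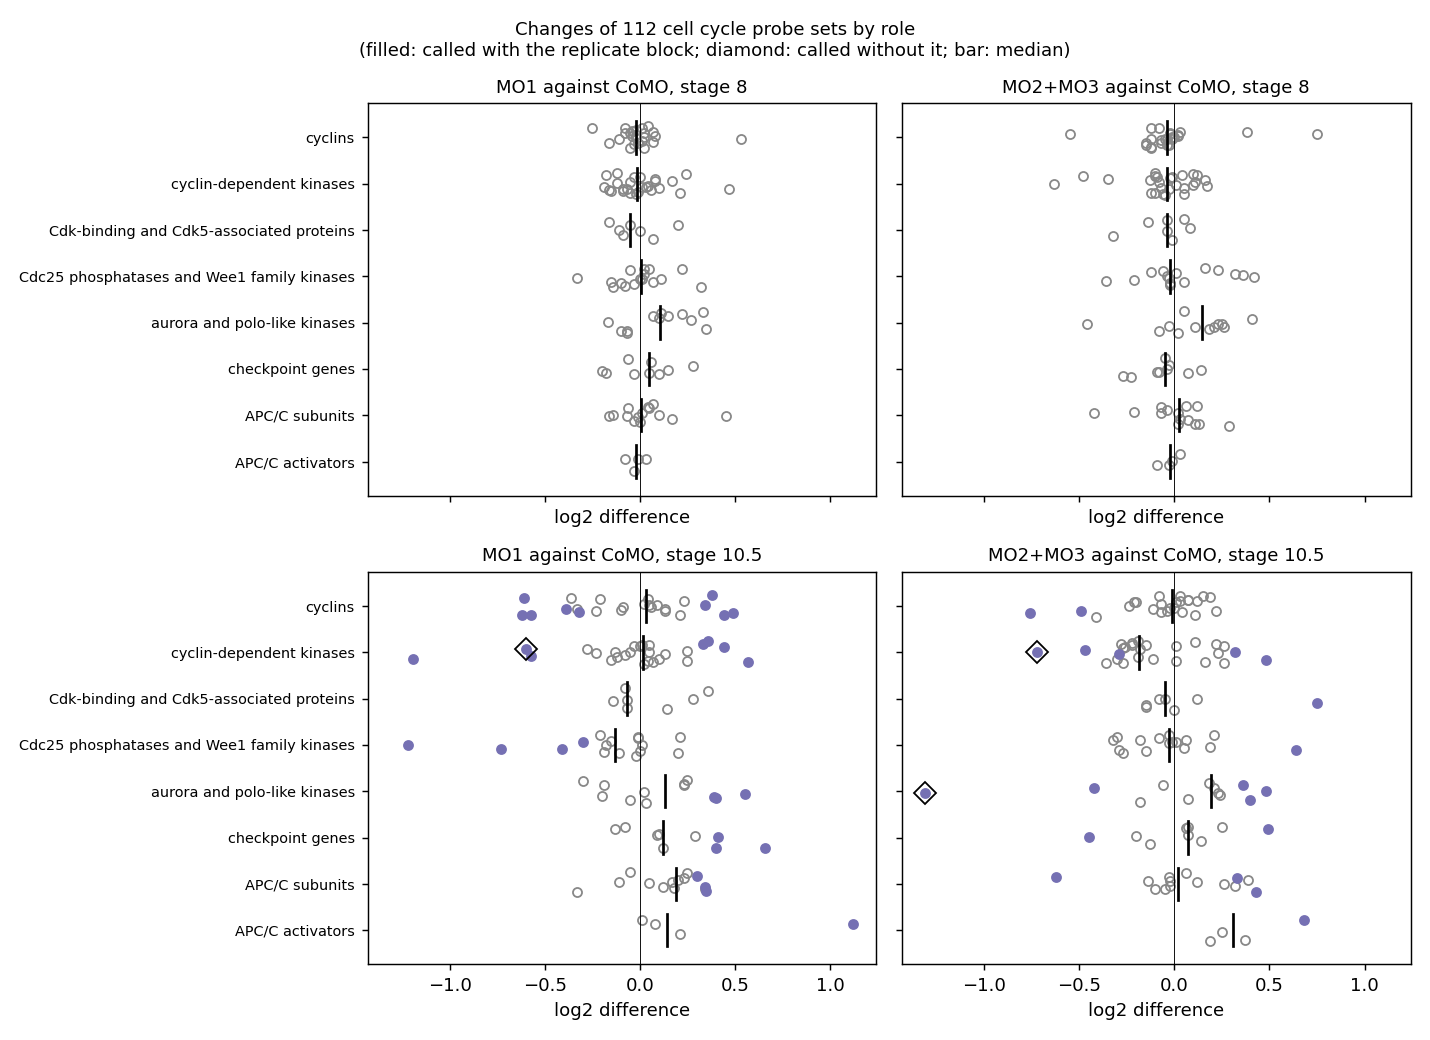
Log2 change of the 112 cell cycle probe sets by role, in MO1 and in MO2+MO3, each against CoMO, at stage 8 (top) and stage 10.5 (bottom). Each point is a probe set, filled where called with the replicate block and in a diamond where called without it, and bars are medians; no point is filled at stage 8, and at stage 10.5 4 probe sets reach a change of 1 or more in either reagent (fzr1.L, wee2.L, cdk9.L probe set 1 and plk2.L).

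Both comparisons share the CoMO arrays, so the same sign in both is no independent repeat. With the block, 8 probe sets were called in both reagents, all with the same sign, 6 higher and 2 lower. This is 7.14% of the members beside 8.04% of all probe sets. It is 26.7% of the members' MO1 calls and 40% of their MO2+MO3 calls, beside 49.5% and 47.9% of the calls over all probe sets. The 6 higher ones were fzr1.L, chek1.S probe set 2, anapc15.L, aurkb.L and both probe sets of cdk17.S, and the 2 lower ones were ccnb3.L and cdk11b.S. A further 66 of the 112 were called with the block neither in a reagent, nor in the mean of both, nor in the difference between the reagents. The same count over all probe sets is not given, so the 66 cannot be set against the whole array.

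Among the APC/C activators, only fzr1.L was called, and its difference from cdc20 was not tested. In stage 10.5 embryos fzr1.L had values of 0.91 and 0.19 with MO1, 0.41 and -0.19 with MO2+MO3, and -0.30 and -0.83 with CoMO (replicates 1 and 2). Within each replicate number MO1 was highest and CoMO lowest, and over all arrays the MO1 and MO2+MO3 values lay above both CoMO values. The change was 1.12 ± 0.29 in MO1 (adjusted p 0.15 without and 0.000297 with the replicate block) and 0.68 ± 0.29 in MO2+MO3 (0.43 and 0.00237), and the SE with the block was 0.09. With the block both calls were kept when each array was left out in turn (highest adjusted p 0.00667 and 0.0296). At stage 8 the 6 values of fzr1.L lay between -0.16 and 0.14 and the changes were 0.03 and -0.03. The change of the mean effect between the stages was 0.89 (adjusted p 0.92 without and 0.00705 with the block). Unlike the 2 calls against CoMO, this call was not kept in every fit that left out 1 array.

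The cdc20 genes were not called, though their changes were positive with both reagents, as those of fzr1.L were. The change in cdc20.L was 0.08 and 0.21 on its probe sets in MO1 and 0.25 and 0.37 in MO2+MO3, and that of cdc20.S was 0.01 and 0.19, with adjusted p of 0.053 or more with the block. Replicates of cdc20.L differed more than the groups did: its probe set 1 read -0.44 and 0.60 in MO1, -0.43 and 0.92 in MO2+MO3, and -0.41 and 0.41 in CoMO.

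Of the 14 probe sets of APC/C subunits, 3 were higher in MO1 with the block and none lower, and 2 were higher and 1 lower in MO2+MO3, which is 21.4% in each beside 16.2% and 16.8% of all probe sets; the medians were 0.19 and 0.02. The small subunit gene anapc15.L, whose product takes part in releasing the APC/C from the mitotic checkpoint complex, had values of 0.32 and -0.06 with MO1, 0.21 and 0.03 with MO2+MO3, and -0.03 and -0.40 with CoMO. Both MO2+MO3 arrays lay above both CoMO arrays, whereas MO1 replicate 2 lay just below CoMO replicate 1. The changes were 0.35 ± 0.17 and 0.33 ± 0.17 (adjusted p 0.52 and 0.53 without, 0.0306 and 0.0351 with the block), and either call was lost without any 1 of its 4 arrays (0.30 to 0.40 and 0.23 to 0.43). Its copy anapc15.S rose by 0.30 on probe set 1 in MO1 with the block (0.0444), and the change was -0.11 on probe set 2. The call of anapc15.S probe set 1 was lost without any 1 of its arrays (0.22 to 0.38).

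The substrate-binding subunit gene anapc10.L differed between the reagents. Its values were 0.22 and 0.41 in MO1, -0.51 and -0.51 in MO2+MO3, and -0.22 and 0.44 in CoMO. Both MO2+MO3 arrays lay below every other array, and the CoMO arrays lay apart from each other. The change was 0.20 ± 0.24 with MO1 and -0.62 ± 0.24 with MO2+MO3 (adjusted p 0.37 without and 0.0222 with the block), and MO1 exceeded MO2+MO3 by 0.82 (0.29 and 0.0107). Without CoMO replicate 2 or MO2+MO3 replicate 2 the fall was no longer called, with changes of -0.90 to -0.34 over the 4 arrays left out. The change in anapc10.S, under a recovered level of 4 at this stage, was 0.34 and 0.06, uncalled. The difference between the reagents was lost without either MO1 array or MO2+MO3 replicate 2 (0.61 to 1.03). The other subunit with a call was anapc13.2.L, at 0.43 in MO2+MO3 on probe set 1 and 0.34 in MO1 on probe set 3. The former call was lost without either MO2+MO3 array or CoMO replicate 1 (0.29 to 0.57), and the latter without any 1 of its arrays (0.27 to 0.41). On these probe sets the reagents differed by -0.38 and 0.22, uncalled (0.0594 and 0.14 with the block).

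Among the 24 cyclin probe sets, 4 were higher and 5 lower in MO1 with the block, and 0 higher and 2 lower in MO2+MO3, with medians of 0.03 and -0.01. These shares, 37.5% and 8.33%, stand beside 16.2% and 16.8% of all probe sets. The B-type cyclin gene ccnb3.L had values of -0.10 and 0.05 in MO1, -0.20 and -0.05 in MO2+MO3, and 0.33 and 0.41 in CoMO. Both CoMO arrays were above all 4 others. The change was -0.39 ± 0.16 with MO1 and -0.49 ± 0.16 with MO2+MO3 (adjusted p 0.43 and 0.28 without, 0.00995 and 0.00379 with the block). In MO2+MO3 the call with the block was kept without each array (highest 0.0419), and in MO1 it was lost without MO1 replicate 1, MO1 replicate 2 or CoMO replicate 1 (-0.43 to -0.36).

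The other copy, ccnb3.S, was lower in MO1 on both of its probe sets. Probe set 1 read -0.31 and -0.63 in MO1, 0.34 and 0.09 in MO2+MO3, and 0.28 and -0.09 in CoMO. Probe set 2 read -0.54 and -0.23 in MO1, -0.12 and 0.19 in MO2+MO3, and 0.12 and 0.36 in CoMO. On either probe set both MO1 arrays were the lowest of the 6. The changes in MO1 were -0.57 ± 0.16 and -0.62 ± 0.22 (adjusted p 0.20 and 0.30 without, 0.00273 and 0.00458 with the block), and those in MO2+MO3 were 0.12 and -0.20, uncalled. The difference between the reagents was -0.69 and -0.42 (adjusted p 0.00195 and 0.0338 with the block). The call of probe set 2 in MO1 was lost without MO1 replicate 1 (0.0529). At stage 8 probe set 2 differed by 0.53 ± 0.22 in MO1, uncalled, and the change of the mean effect between the stages was -0.87 (0.00949 with the block and 1.0 without it). The call of this stage change was not kept in every fit that left out 1 array.

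The other cyclin calls with the block, named after their values were seen, were in MO1 except for ccnd1.L. The A-type cyclins ccna1.L, ccna1.S and ccna2.S rose by 0.38, 0.49 and 0.34 and the mitotic cyclin ccnb1.S by 0.44 in MO1. The call of ccna2.S was lost without any 1 of its arrays (0.24 to 0.44). That of ccna1.L was lost without either MO1 array or CoMO replicate 1 (0.30 to 0.46), and that of ccna1.S without MO1 replicate 1 or CoMO replicate 1 (0.23 to 0.75). The call of ccnb1.S was lost without either MO1 array or CoMO replicate 2 (0.35 to 0.53). In ccnb1.S the difference between replicates was larger than that between groups: 0.84 and -0.36 in MO1, 0.36 and -0.73 in MO2+MO3, and 0.47 and -0.85 in CoMO. The mitotic cyclin ccnb2.S changed by -0.61 ± 0.18 in MO1 and the S-phase cyclin ccne1.L probe set 2 by -0.32. The call of ccne1.L probe set 2 was lost without any 1 of its arrays (-0.38 to -0.27). The G1 cyclin ccnd1.L read -0.16 and 0.16 in MO1, -0.40 and -0.41 in MO2+MO3, and 0.47 and 0.24 in CoMO, and changed by -0.76 ± 0.18 in MO2+MO3 (adjusted p 0.12 without and 0.00572 with the block). This call of ccnd1.L was lost without MO2+MO3 replicate 2 or CoMO replicate 1 (-0.96 to -0.57). Its change in MO1 was -0.36, uncalled, although both CoMO arrays lay above all the others.

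The Cdks held 2 of the 3 calls made without the block. Of their 26 probe sets, 4 were higher and 3 lower in MO1 with the block, and 2 higher and 3 lower in MO2+MO3, with medians of 0.01 and -0.18. These shares were 26.9% in MO1, beside 16.2% of all probe sets, and 19.2% in MO2+MO3, near the 16.8% of all. The gene cdk10.L, whose kinase pairs with cyclin M, was lower in MO2+MO3 on both probe sets. Probe set 2 had values of -0.05 and 0.05 in MO1, -0.70 and -0.51 in MO2+MO3, and 0.15 and 0.09 in CoMO. Probe set 1 had values of 0.14 and 0.13 in MO1, -0.44 and -0.50 in MO2+MO3, and 0.00 and 0.00 in CoMO. On each probe set the MO2+MO3 arrays lay at least 0.44 below the rest.

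In MO2+MO3 the change was -0.72 ± 0.13 on cdk10.L probe set 2 (adjusted p 0.05, under the threshold before rounding, and 0.00153 with the block) and -0.47 ± 0.09 on probe set 1 (0.0721 and 0.00603). MO1 exceeded MO2+MO3 by 0.60 ± 0.09 on probe set 1 (0.0425 without and 0.00342 with the block) and by 0.61 on probe set 2 (0.11 and 0.00499). The call on probe set 2 was lost without the block when any array was left out (0.32 at most) and kept with it (0.0191 at most), and with the block that on probe set 1 was lost without MO2+MO3 replicate 2 (0.0623). The other arrays, those of stage 8, gave changes of the same sign in MO2+MO3, -0.63 ± 0.13 and -0.48 ± 0.09, which were not called (0.0553 and 0.09 with the block). There, probe set 2 read -0.11 and 0.13 in MO1, -0.56 and -0.36 in MO2+MO3, and 0.11 and 0.22 in CoMO, so that cdk10.L was lowest in all 4 MO2+MO3 arrays of their stages.

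The kinase gene cdk11b.S, whose human counterpart is tied to transcription and splicing, read -0.31 and -0.31 in MO1, -0.07 and 0.07 in MO2+MO3, and 0.28 and 0.31 in CoMO. The groups did not overlap, with MO1 lowest and CoMO highest. The change was -0.60 ± 0.11 in MO1 (adjusted p 0.0454 without and 0.00265 with the block) and -0.29 ± 0.11 in MO2+MO3 (0.32 and 0.0492). Without the block the MO1 call was lost when any array was left out (-0.62 to -0.59, 0.26 at most) and when arrays were quantile normalized (0.0555); with the block it was kept without each array (0.0354 at most), and that in MO2+MO3 was lost without any 1 of its arrays (-0.36 to -0.23). The change in cdk11b.L, under a level of 4 at both stages, was -0.23 and -0.26, uncalled.

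The transcription elongation kinase gene cdk9.L gave unequal answers on its probe sets. Probe set 1 read -0.89 and -0.89 in MO1, -0.24 and 0.24 in MO2+MO3, and 0.26 and 0.34 in CoMO, with both MO1 arrays the lowest. Its change in MO1 was -1.19 ± 0.32 (adjusted p 0.16 without and 0.00152 with the block, kept without each array at 0.0225 or less). Probe set 2 differed by 0.07 ± 0.16 in MO1, and cdk9.S by -0.05 ± 0.17. The span of 1.26 between the probe sets was the widest among the 23 genes with several, whose median span in MO1 was 0.18.

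The PCTAIRE kinase gene cdk17.S rose with both reagents with the block. Probe set 1 read 0.21 and 0.02 in MO1, 0.22 and -0.02 in MO2+MO3, and -0.12 and -0.31 in CoMO, and both CoMO arrays were lowest. Its change was 0.33 ± 0.12 with MO1 and 0.32 ± 0.12 with MO2+MO3 (adjusted p 0.0238 and 0.0274 with the block, 0.36 and 0.38 without it), and on probe set 2 the changes were 0.36 ± 0.20 and 0.48 ± 0.20 (0.0343 and 0.0112, against 0.62 and 0.42). On probe set 1 either call was lost without any 1 of its arrays, with changes of 0.32 to 0.35 and 0.29 to 0.34. On probe set 2 the MO1 call was lost without either MO1 array or CoMO replicate 2 (0.22 to 0.50), and that in MO2+MO3 without MO2+MO3 replicate 2 or CoMO replicate 2 (0.34 to 0.61). The mitotic kinase cdk1.S changed by -0.57 in MO1 with the block (0.0111, lost without MO1 replicate 2 or CoMO replicate 2 at -0.78 to -0.37). In MO1 the related cdk16.L changed by 0.57 on probe set 1 and 0.01 on probe set 2, and cdk20.S, under a level of 4, by 0.44. The call of cdk16.L probe set 1 was lost without either MO1 array or CoMO replicate 1 (0.40 to 0.74). That of cdk20.S was lost without any 1 of its arrays (0.42 to 0.47). These genes were named after their values were seen. The change in cdk1.L was -0.28 in MO1 and -0.27 in MO2+MO3, and in cdk2.L 0.02 and 0.01, uncalled. Of the 7 probe sets of Cdk-binding and Cdk5-associated proteins only cdk5r2.S, an activator of Cdk5, was called: it rose by 0.75 ± 0.39 in MO2+MO3 (0.56 without and 0.00369 with the block).

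**Figure D2:**
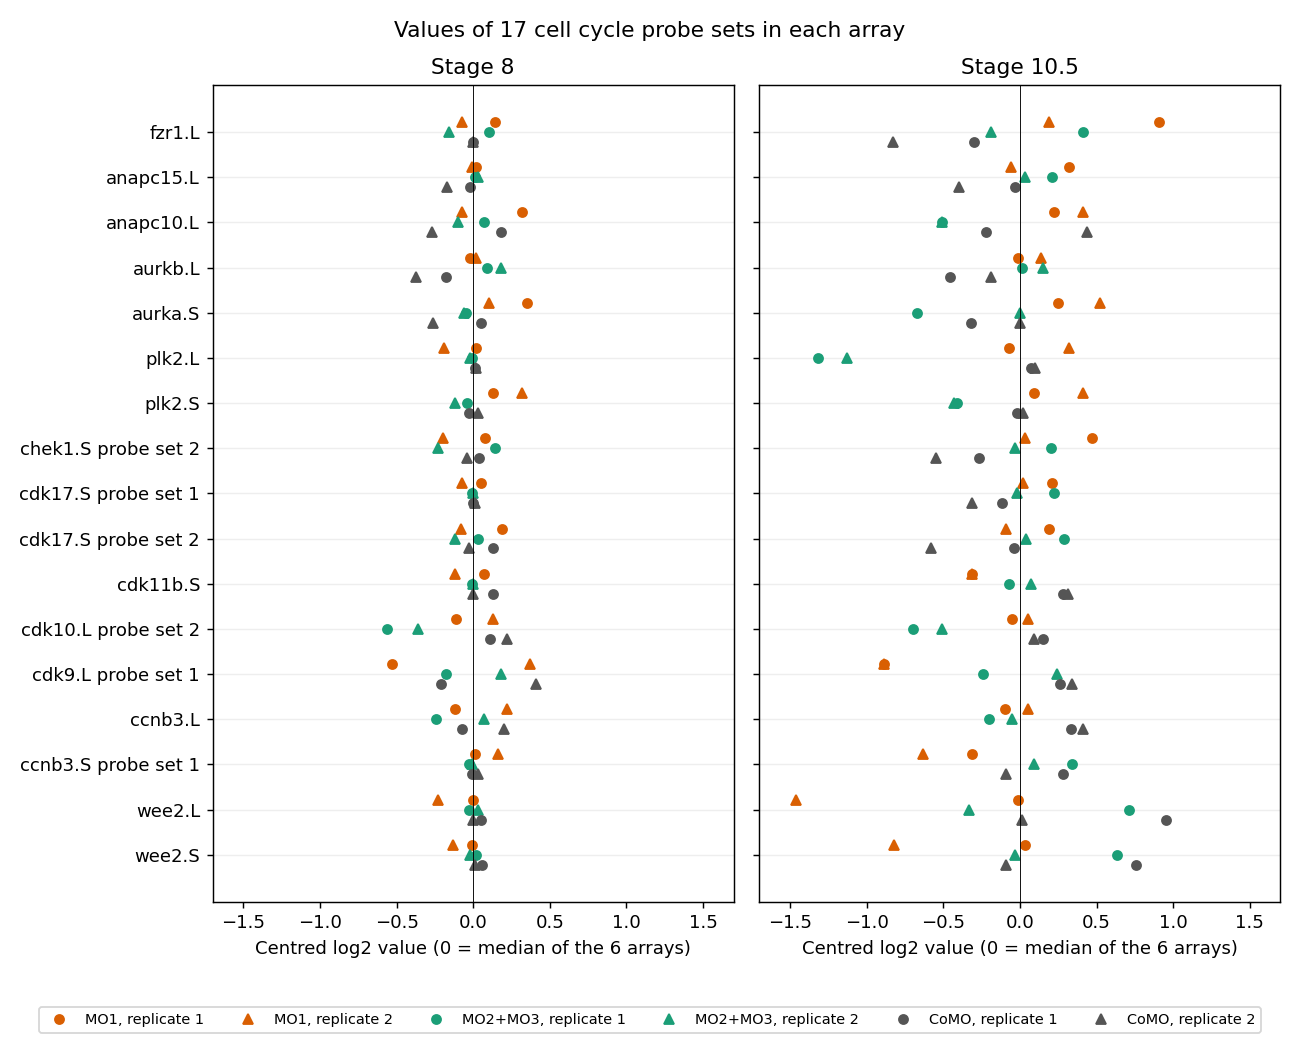
Centred log2 values of 17 probe sets in each array at stage 8 and at stage 10.5, with 0 the median of the 6 arrays of a stage. Circles are replicate 1, triangles replicate 2 and colours the injections; plk2.L in MO2+MO3, wee2.L in MO1 and fzr1.L spread at stage 10.5 and sit close to 0 at stage 8, while cdk10.L is lowest in MO2+MO3 at both stages.

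Of the 16 probe sets of Cdc25 phosphatases and Wee1 family kinases, 4 were lower and none higher in MO1 with the block, and 1 was higher in MO2+MO3 (25% and 6.25%, beside 16.2% and 16.8% of all probe sets); the medians were -0.13 and -0.03. The Wee1 family kinase gene wee2.L had values of -0.01 and -1.46 in MO1, 0.71 and -0.33 in MO2+MO3, and 0.95 and 0.01 in CoMO. Its copy wee2.S had values of 0.03 and -0.82 in MO1, 0.63 and -0.03 in MO2+MO3, and 0.76 and -0.09 in CoMO. The replicates lay far apart in all groups, and within each replicate number MO1 was the lowest; over all arrays MO1 replicate 1 was not below every CoMO array in wee2.S.

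The change in MO1 was -1.22 ± 0.51 for wee2.L and -0.73 ± 0.35 for wee2.S (adjusted p 0.43 and 0.52 without, 0.000806 and 0.00117 with the block), and the calls with the block were kept without each array (0.0109 and 0.0184 at most). In MO2+MO3 wee2.L changed by -0.29 and wee2.S by -0.03 (uncalled, 0.18 and 0.84 with the block). The reagents differed by -0.93 in wee2.L and -0.69 in wee2.S (0.00396 and 0.00227 with the block, 0.81 and 0.73 without it), and that in wee2.L was not called without MO2+MO3 replicate 2 (0.0502). The paralogs wee1.L and wee1.S were not called, with changes over 3 probe sets of -0.21 to -0.01 with MO1 and of -0.30 to -0.08 with MO2+MO3. Neither were the 3 probe sets of pkmyt1.S, a membrane-bound Cdk1 inhibitory kinase, with changes of 0.00 to 0.20 in MO1. Of the activating phosphatases, cdc25a.L changed by -0.41 and cdc25c.L by -0.30 in MO1 with the block. The call of cdc25a.L was lost without MO1 replicate 2 or CoMO replicate 2 (-0.54 to -0.28). That of cdc25c.L was lost without any 1 of its arrays (-0.33 to -0.26). In MO2+MO3 cdc25a.S probe set 3 changed by 0.64, a call lost without MO2+MO3 replicate 2 or either CoMO array (0.26 to 1.02). These genes were named after their values were seen.

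Of the 12 aurora and polo-like kinase probe sets, 3 were higher and none lower in MO1 with the block, and 3 higher and 2 lower in MO2+MO3, with medians of 0.13 and 0.19 (25% and 41.7% called, beside 16.2% and 16.8% of all probe sets). The lower ones were the copies of plk2, a polo-like kinase linked to centriole duplication and stress responses. For plk2.L the values were -0.07 and 0.32 in MO1, -1.32 and -1.13 in MO2+MO3, and 0.07 and 0.10 in CoMO. Both MO2+MO3 arrays lay more than 1 log2 unit below all other arrays, and MO1 overlapped CoMO. The change in MO2+MO3 was -1.31 ± 0.14 (adjusted p 0.0132 without and 0.000287 with the block), against 0.03 ± 0.14 in MO1, and MO1 exceeded MO2+MO3 by 1.34 (0.0116 and 0.000387).

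Without the block the call of plk2.L in MO2+MO3 was lost when any 1 of its 4 arrays was left out (-1.41 to -1.21, 0.12 at most), and with the block it was kept (0.00639 at most). The copy plk2.S read 0.09 and 0.41 in MO1, -0.41 and -0.43 in MO2+MO3, and -0.02 and 0.02 in CoMO, the same order at a smaller distance. It fell by 0.42 in MO2+MO3 with the block (0.0294, and 0.21 without it), a call that was lost without any 1 of its arrays (-0.52 to -0.32). Its recovered level at stage 10.5 was under 4, the range of the negative control probe sets, and at stage 8 both copies were under 4, where a fall could go unseen.

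The mitotic kinase gene aurkb.L, coding for the chromosomal passenger kinase, read -0.01 and 0.14 in MO1, 0.01 and 0.15 in MO2+MO3, and -0.46 and -0.19 in CoMO, with both CoMO arrays lowest. The change was 0.39 ± 0.13 and 0.40 ± 0.13 (adjusted p 0.27 and 0.25 without, 0.0234 and 0.0202 with the block), and either call was lost without any 1 of its arrays (0.33 to 0.45 and 0.34 to 0.46). The change in its copy aurkb.S was 0.02 in MO1, uncalled, and 0.36 in MO2+MO3 (0.0226 with the block), and the reagents differed by -0.34 (0.0424 with the block). Both of these aurkb.S calls were lost without any 1 of their arrays (0.32 to 0.40 and -0.39 to -0.28). The spindle pole kinase gene aurka.S read 0.25 and 0.52 in MO1, -0.67 and 0.00 in MO2+MO3, and -0.32 and 0.00 in CoMO. Its change was 0.55 ± 0.23 in MO1 (0.44 without and 0.0162 with the block) and -0.18 in MO2+MO3, uncalled, and MO1 exceeded MO2+MO3 by 0.72 (0.35 and 0.00766). Both MO1 arrays lay above all others, but the MO1 call was lost without MO1 replicate 1, CoMO replicate 1 or CoMO replicate 2 (0.43 to 0.66). The copy aurka.L rose by 0.40 in MO1 with the block (0.0485), a call that was lost without MO1 replicate 1 or CoMO replicate 1 (0.20 to 0.61), and the mitotic kinase gene plk1.S, named after its values were seen, by 0.48 on probe set 2 in MO2+MO3 (0.0115) while probe set 1 differed by 0.18, uncalled. The call of plk1.S probe set 2 was lost without either MO2+MO3 array or CoMO replicate 1 (0.35 to 0.60).

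Of the 9 checkpoint probe sets, 3 were higher in MO1 with the block and none lower, and 1 was higher and 1 lower in MO2+MO3 (33.3% and 22.2%, beside 16.2% and 16.8% of all probe sets); the medians were 0.12 and 0.07. The kinase Chk1 acts on Cdc25 when DNA replication stalls and lengthens the cycle at the mid-blastula transition. On probe set 2, chek1.S read 0.47 and 0.03 in MO1, 0.20 and -0.03 in MO2+MO3, and -0.27 and -0.55 in CoMO. Both CoMO arrays were the lowest of the 6. The change was 0.66 ± 0.20 with MO1 and 0.49 ± 0.20 with MO2+MO3 (adjusted p 0.22 and 0.39 without, 0.00303 and 0.0106 with the block). The MO1 call with the block was kept without each array (0.0456 at most), and that in MO2+MO3 was lost without MO2+MO3 replicate 2 or either CoMO array (0.43 to 0.56).

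The other probe set of chek1.S gave 0.29 ± 0.13 and 0.07 ± 0.13, uncalled, and the change of the mean effect of probe set 2 between the stages was 0.63 (adjusted p 0.0239 with the block). The call of this stage change was not kept in every fit that left out 1 array. The spindle checkpoint genes bub1b.L and mad2l1.L rose by 0.41 and 0.40 in MO1 with the block, against changes of 0.06 and 0.07 in MO2+MO3, uncalled. Without the block the adjusted p in MO1 was 0.28 and 0.52. Either call was lost without any 1 of its arrays (0.38 to 0.44 and 0.37 to 0.44). For bub1b.L, which codes for BubR1, the values were 0.40 and 0.31 in MO1, 0.01 and -0.01 in MO2+MO3, and -0.05 and -0.07 in CoMO. The copy mad2l1.S changed by -0.45 on probe set 1 in MO2+MO3 with the block (0.0194). This call was lost without MO2+MO3 replicate 1 or CoMO replicate 1 (-0.57 to -0.32). In MO1 the changes of mad2l1.S were -0.08 and 0.12 on its probe sets, uncalled. The genes bub1b.L, mad2l1.L and mad2l1.S were named after their values were seen. The DNA damage kinase gene chek2.L differed by -0.13 in either reagent, uncalled.

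The reagents were also set against each other. With the block, 25 were called for MO1 against MO2+MO3 at stage 10.5, 14 higher and 11 lower in MO1, which is 22.3% beside 9.75% of all probe sets (4.36% higher and 5.38% lower). With 1 array left out the count was 6 to 12, which is 5.36% to 10.7% beside 2.68% to 4% of all probe sets. Without the block 2 were called, plk2.L and cdk10.L probe set 1, both higher in MO1, beside 0.55% of all probe sets (0.255% higher). The widest differences were 1.34 in plk2.L and -0.93 in wee2.L. The mean of both reagents against CoMO gave 0 calls without the block, beside 0.996% of all probe sets. At an unadjusted p under 0.05 without the block, 17 of the 112 passed, beside 4011 of the 32539 probe sets. With the block the mean gave 22 calls, 10 higher and 12 lower. This is 19.6% and near the 19.1% of all probe sets (10% higher and 9.1% lower). The change of the mean effect from stage 8 to stage 10.5 was called in 6 probe sets with the block, beside 5.28% of all (2.96% higher and 2.32% lower), and in 0 without it, beside 0.00615%. They were fzr1.L, cdk5r2.S and chek1.S probe set 2 with a higher effect at stage 10.5, and wee2.L, plk2.L and ccnb3.S probe set 2 with a lower one. The lower mean rested mostly on MO1 in wee2.L and on MO2+MO3 in plk2.L. None of these 6 stage changes was called in every fit with the block that left out 1 array.

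Most pairs of copies had changes of the same sign in MO1, called or not. Of the 26 genes with both copies measured, 22 had the same sign in both copies in MO1 at stage 10.5 (12 with both higher and 10 with both lower) and 17 in MO2+MO3 (6 and 11). This is 84.6% and 65.4%, beside 63.5% and 63.9% of the 2009 genes with both copies among all probe sets. The median absolute difference between copies was 0.21 in MO1 and 0.12 in MO2+MO3, against 0.16 in each over those genes. The widest were 0.52 in MO1, for cdk9, and 0.89 in MO2+MO3, for plk2. In MO1 the mean of cdk9.L takes in -1.19 on probe set 1 and 0.07 on probe set 2, beside -0.05 for cdk9.S. The width for cdk9 thus rests on 1 probe set of the .L copy. Probe sets may hybridise to both copies, so like values of the copies are not independent.

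**Figure D3:**
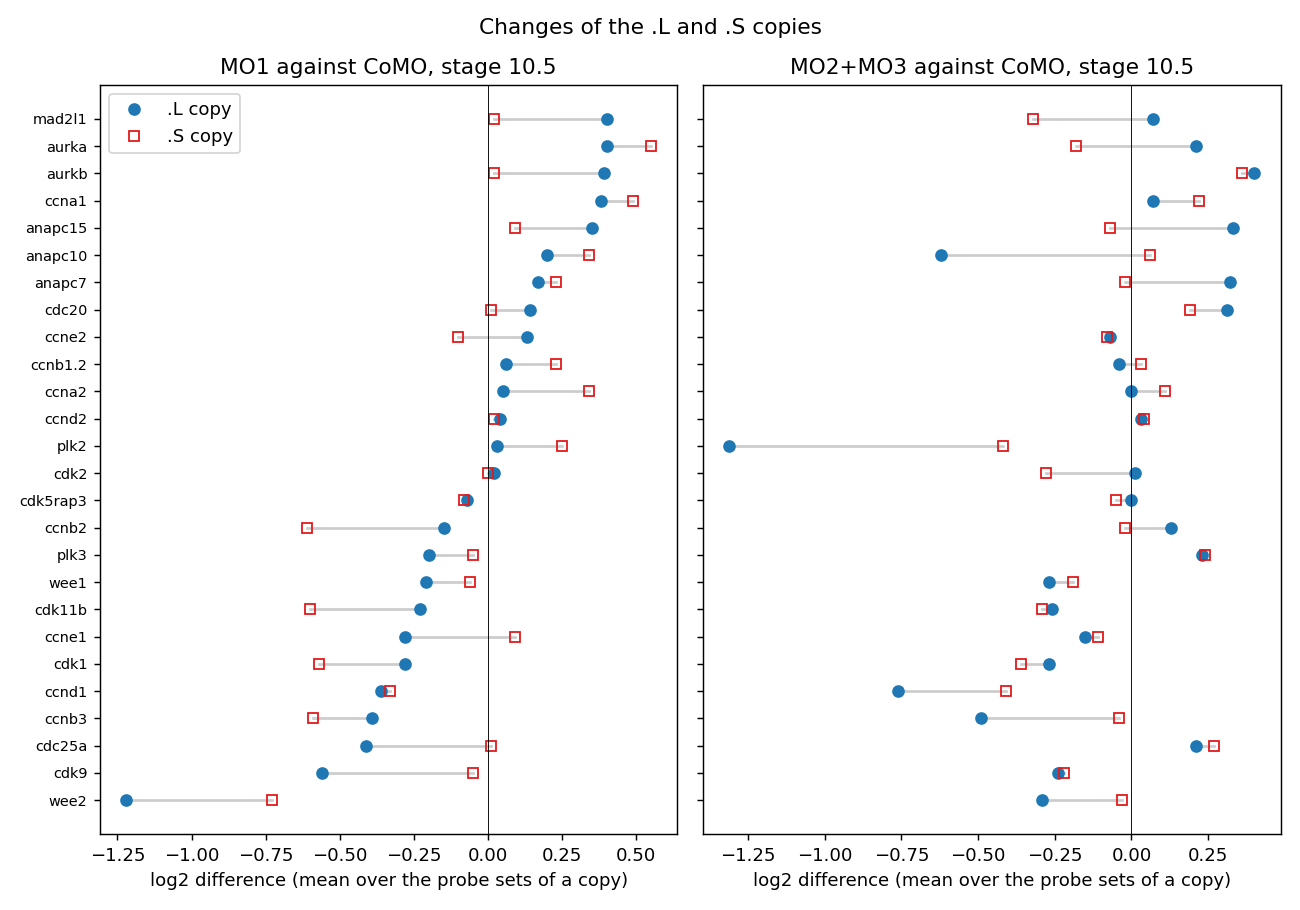
Log2 change at stage 10.5 of the .L copy (circles) and the .S copy (squares) of 26 genes, averaged over the probe sets of a copy, in MO1 and in MO2+MO3, each against CoMO. Grey lines join the copies of a gene; the longest, 0.89, is that of plk2 in MO2+MO3 with the .L copy lower, and wee2 in MO1 is low in both copies.

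Other cell cycle genes, outside the symbol rule, were counted by list, always with the block. Over all probe sets 8.48% were higher and 7.75% lower in MO1 (16.2% in all), and 9.02% higher and 7.77% lower in MO2+MO3 (16.8%). Among 9 probe sets of APC/C and Cdk inhibitors and of the meiotic kinase mos, 4 were higher and none lower in each reagent (44.4%). The medians were 0.15 in MO1 and 0.41 in MO2+MO3. The APC/C inhibitor fbxo43 (Emi2), which holds the frog egg in meiotic metaphase, rose on both copies with the block: fbxo43.L by 1.46 with MO1 and 0.89 with MO2+MO3, and fbxo43.S by 0.79 with MO1 and 1.27 with MO2+MO3. The inhibitor of the cyclin D kinases cdkn2d.S rose by 0.63 with MO1 and 0.98 with MO2+MO3, and was called without the block in MO2+MO3 (adjusted p 0.0308). The meiotic kinase mos.L rose by 0.41 in each reagent on 1 of its 2 probe sets.

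Of 31 probe sets of APC/C substrates and cohesin, 8 were lower and none higher in MO1 (25.8%) and 2 lower in MO2+MO3 (6.45%). All 4 probe sets of the cohesin subunit gene stag2.L fell in MO1 with the block, with changes of -0.84 to -0.46, and both probe sets of the Cdk-binding factor cks1b.L fell in MO2+MO3, with changes of -0.61 and -0.56. Of 45 probe sets of G1 to S regulators, 4 were higher and 10 lower in MO1 (31.1%), and 7 higher and 9 lower in MO2+MO3 (35.6%); mycn.L, a Myc family transcription factor, rose by 1.03 on probe set 1 in MO2+MO3, and the pocket protein rbl1.L changed by -0.65 with MO1 and -0.54 with MO2+MO3 on probe set 2. Of 26 spindle checkpoint and chromosomal passenger probe sets, 4 were higher and 2 lower in MO1 (23.1%), and 4 higher and 1 lower in MO2+MO3 (19.2%), with the survivin gene birc5.L at 0.66 with MO1 and 0.65 with MO2+MO3. Of 19 Greatwall and PP2A-B55 probe sets 0 were higher and 2 lower in MO1 (10.5%), and 4 higher and 0 lower in MO2+MO3 (21.1%). Of 15 DNA damage checkpoint probe sets 2 were higher and 1 lower in MO1 (20%), and 3 higher and 1 lower in MO2+MO3 (26.7%), with the kinase gene atr.L at 0.46 with MO1 and 0.53 with MO2+MO3. Of 10 further APC/C subunits and ubiquitin-conjugating enzymes 1 was higher in MO1 (10%), ube2s.L at 0.42, and 0 in MO2+MO3.

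At stage 10.5 the means per array of the epidermis and mesoderm marker lists were lower with both reagents than with CoMO, without overlap. Means of the endoderm list in MO2+MO3 and of the maternal list in MO1 overlapped those of CoMO. Of 18 epidermis probe sets, 15 were lower and 1 higher in MO1 and 14 lower in MO2+MO3 with the block (5 lower in each without it), beside 7.75% and 7.77% of all probe sets lower, and the mean of the list per array was -0.44 to -0.15 in MO1, -0.23 to -0.02 in MO2+MO3, and 0.68 to 0.97 in CoMO. Of 8 mesoderm probe sets 7 were lower in MO1 and 6 in MO2+MO3, with means of -1.0 to -0.06, -0.47 to 0.07, and 0.28 to 1.26 in CoMO. Of 9 endoderm probe sets 3 were lower in each reagent, with means of -0.35 to -0.06 in MO1, -0.38 to 0.08 in MO2+MO3, and 0.04 to 0.29 in CoMO. The endoderm list was made from sox17a, sox17b, foxa4, gata6 and mixer, so a lower value need not be one of endoderm alone. Of 4 maternal probe sets 1 was higher in MO1 and 2 in MO2+MO3, with means of -0.37 to 0.18 in MO1, 0.60 to 0.87 in MO2+MO3, and -0.59 to -0.22 in CoMO, and of 4 germ plasm probe sets 0 and 1 were higher, with means of -0.05 to 0.04, -0.03 to 0.19, and -0.15 to -0.11. At stage 10.5 2 of the epidermis probe sets and none of the other markers were under 4, and at stage 8 16 of 18 epidermis, 7 of 8 mesoderm and 6 of 9 endoderm probe sets were. The part of these shifts in the changes of cell cycle transcripts was not tested.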

How the data were processed

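Per the labels' protocols, biotinylated cRNA of whole Xenopus laevis embryos (100 ng of RNA each, 3' IVT chemistry) was hybridised to 12 arrays. The authors deposited 1 table of log2 values from RMA, as the submitters' processing notes say; the version and the log base are not given in the sources used here, and log2 is an assumption. The deposited log2 values were centred per probe set at each stage on the median of its 6 arrays, as found in the values (largest absolute median 5e-07), which removed levels and differences between stages. Bounds on the level before centring were recovered from the rounding of the values, and a probe set whose median array lay under 4 was called dim: 16 members at stage 8 and 11 at stage 10.5, against 34.3% and 32.9% of all, and 6 and 5 of 6 TrpnX negative controls.

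Of 32635 probe sets the 96 controls were left out. The platform annotation names 1 gene for 15495 of those tested; 110 of the 112 members matched the gene table of Xenopus_laevis_v10.1. limma 3.58.1 in R 4.3.3 took all 12 arrays in a model of 6 group means, with eBayes, two-sided moderated tests and Benjamini-Hochberg adjustment over 32539 probe sets. The residual SD of the median probe set was 0.175 (6 residual degrees of freedom) without the replicate block and 0.104 (4) with it. The replicate numbers pair the arrays: deviations from the group means correlated at 0.821 to 0.864 between groups of a stage, and at -0.0164 to 0.0244 between stages. Labels call the replicates biological and do not say whether they are separate clutches, so p-values measure the spread between these arrays. The number of arrays limits the precision.

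The members, lists and tests were chosen with earlier results of these data known. Values in every array are given for fzr1, for members called without the block against CoMO, for members called with the block with the same sign in both reagents, for the 4 largest differences between the reagents per direction, and for copies and further probe sets of these genes. The fits were tested on simulated data. Alternatives were the replicate block, the arrays of a stage alone, quantile normalization, robust eBayes, dim probe sets left out, the mean over the probe sets of a gene, and each array of the compared groups left out in turn. Some were combined with the block after seeing the data. No sequences or coordinates are given.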

Additional observations from a re-analysis of the deposited data

Results flagged for a closer look

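The effects of MO1 and MO2+MO3 on the same gene differed by a test of the difference itself in a set of cell cycle probe sets at stage 10.5. In limma the difference, MO1 minus MO2+MO3, was called without the block for plk2.L (1.34) and cdk10.L probe set 1 (0.60). With the replicate block it was also called as higher in MO1 for anapc10.L (0.82), aurka.S (0.72), plk2.S (0.67), cdk10.L probe set 2 (0.61), fzr1.L (0.44), ccnb1.S (0.43), cdk7.L probe set 2 (0.43), cdk20.S (0.43), anapc15.S probe set 1 (0.40), bub1b.L (0.35), mad2l1.L (0.33) and ccna1.L (0.31). It was called as lower in MO1 with the block for wee2.L (-0.93), cdk9.L probe set 1 (-0.89), wee2.S (-0.69), ccnb3.S probe set 1 (-0.69), cdc25a.L (-0.63), ccnb2.S (-0.59), plk3.L (-0.44), ccnb3.S probe set 2 (-0.42), ccnb2.L probe set 1 (-0.41), aurkb.S (-0.34) and cdc25c.L (-0.29). Of these 25 differences 4 were kept whichever array was left out, those of plk2.L, cdk10.L probe set 1, ccnb3.S probe set 1 and wee2.S. The difference for fzr1.L was lost in all 4 fits that left out 1 array, at 0.36 to 0.52 (adjusted p up to 0.19 with the block), so fzr1.L was higher in both reagents and their unequal size rests on all arrays together.

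The mean effect of both reagents differed between the stages, with the replicate block, for 6 probe sets, near the 5.28% called among all: fzr1.L (0.89), chek1.S probe set 2 (0.63), cdk5r2.S (0.61), plk2.L (-0.57), wee2.L (-0.67) and ccnb3.S probe set 2 (-0.87); plk2.L was dim at stage 8. None of these was called without the block, and with it none was kept in every fit that left out 1 array. At stage 10.5 plk2.L changed by -1.31 in MO2+MO3 and by 0.03 in MO1, and wee2.L by -1.22 in MO1, uncalled in MO2+MO3. These means are therefore not effects shared by both reagents. In ccnb3.S probe set 2 the stage 8 changes were 0.53 in MO1 and 0.38 in MO2+MO3, uncalled. Groups of 2 arrays are too small for a test of single outlying arrays.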

How the results depend on the processing

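The replicate numbers pair the arrays within a stage, and the replicate block moved the counts of called cell cycle probe sets at stage 10.5 to 30 in MO1, 20 in MO2+MO3, 22 in the average of the reagents, 25 for MO1 minus MO2+MO3 and 6 for the change between stages, against 1, 2, 0, 2 and 0 without it. At stage 8 the counts were 0 with and without the block, except 1 in MO2+MO3 with quantile normalization and the block. Without the block, the arrays of stage 10.5 alone gave 0 calls in MO1, in MO2+MO3 and between the reagents, quantile normalization gave 0 in MO1, and robust eBayes gave 1 in MO2+MO3. With the block, the stage alone gave 21, 13, 20 and 17 calls (MO1, MO2+MO3, mean, difference), quantile normalization 22, 19, 23 and 24 with 4 for the stage change, and the mean over the probe sets of a gene 24, 16, 22 and 20 with 6, a fit over genes rather than probe sets. Leaving out 1 array at a time without the block gave 0 to 0 calls for either reagent and 0 to 1 for their average and their difference; with the block it gave 10 to 15, 6 to 13, 8 to 22 and 6 to 12, and 0 to 4 for the stage change, where fewer arrays leave fewer degrees of freedom. At stage 8 the range was 0 to 0 in each. No result changed sign under the alternatives run; among the single probe sets described, set against the fit without the block, 515 results kept their side of the threshold, 205 passed it only in the alternative and 26 only in that fit. Of the calls made with the block, 71 of 120 were lost with 1 array left out in MO1, 45 of 80 in MO2+MO3 and 67 of 100 for the difference, counting each call once per array left out. The cause of the other shifts was not tested. Precision is limited by 2 arrays per group and, for dim probe sets, by signal near the negative controls.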

Other observations

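Some cell cycle genes differed more between replicates than between injections, a comparison chosen after the values were seen. Averaged over the 3 groups, replicate 2 minus replicate 1 had a median absolute size of 0.19 at stage 8 and 0.21 at stage 10.5 over the members, against 0.14 and 0.16 over all probe sets. A size of 1 or more was reached by 1.79% of the members at stage 8 and 3.57% at stage 10.5, against 3.49% and 3.2% of all probe sets. At stage 10.5 the cyclin ccnb1.S differed by -1.20, the phosphatase gene cdc25a.S by 1.18 on probe set 2, which was dim, wee2.L by -1.15, and cdc20.L by 1.07 on probe set 1. At stage 8 cdc25a.S probe set 3 differed by -1.88 and the G1 kinase gene cdk4.S by 1.05 on probe set 1, and cdk4.S differed by 1.0 again at stage 10.5. The replicate numbers of the stages are not tied to each other by the labels, so these signs cannot be compared across stages.

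Both arrays of a group lay above both CoMO arrays at stage 10.5 in 27 members in MO1 (24.1%, against 19.8% of all probe sets) and in 22 in MO2+MO3 (19.6%, against 19.7%). They lay below in 20 members in MO1 (17.9%, against 17.1%) and in 23 in MO2+MO3 (20.5%, against 18.4%).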
